A study of Homo sapiens with 36 samples.

Results

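Late changes in gene expression under a high dose of acetaminophen (APAP) were followed in HepG2 cells, an established human line that grew out of a liver tumour. The comparison took all arrays whose titles give 10 mM APAP at 24, 48 or 72 h, with 3 arrays at each time, so 9 of the 36 arrays of the series. The arrays were chosen by their titles. The 72 h arrays were set against the 24 h arrays over all 18919 genes of the table, and the 48 h arrays showed how far the change had gone at the middle of the interval. Cells near confluence received fresh medium with 10 mM APAP, 0.5 mM APAP or the solvent DMSO at 0.5%, and each treatment had 3 arrays at 12, 24, 48 and 72 h. The 0.5 mM APAP and DMSO arrays were used here to show how much the same span of culture changed expression without the high dose. The labels leave unclear whether the APAP medium also held DMSO, and their extraction text gives 24 h throughout, so the times used are those of the titles and time labels. All arrays come from a single tumour line, and the series calls the replicates biological without saying how the cultures were kept apart.

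APAP is an analgesic that injures the liver in overdose. Hepatocytes clear most of it by glucuronidation and sulfation, while cytochrome P450 enzymes turn a fraction into the reactive quinone imine NAPQI, which glutathione neutralises until it runs short. HepG2 cells are known for much lower P450 activity than primary hepatocytes. Late times of an exposure therefore show a culture that has lived with the drug for days, together with the changes that any culture of these cells undergoes as it grows and ages.

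Each array gave a log2 expression level per gene, so a difference of 1 is a 2-fold change. The files carry Ensembl identifiers without gene names, so genes are described by numbers and levels, 4 are given by identifier, and the hepatocyte markers that would test the cell line's label were not checked. The 9 arrays correlated with each other at r between 0.990 and 0.998 across genes, with no identical pair. The median standard deviation of a gene among the 3 replicates was 0.120 in the 24 h group, 0.147 in the 48 h group and 0.116 in the 72 h group. A difference between 2 groups had a median standard error of 0.122. It was the same for every pair of groups, since the spread was pooled over all 36 arrays and each group had 3. Spike-in controls (dap rows) were weak on 3 of the 9 arrays, at mean log2 levels of 2.76 to 6.44. These were replicate 2 at 24 h, replicate 1 at 48 h and replicate 1 at 72 h. The other 6 arrays ranged from 11.3 to 13.1. DMSO had 2 such arrays, replicate 1 at 48 h and replicate 1 at 24 h. At 12 h, replicate 1 of 10 mM was also weak, at 5.92, which made 6 such arrays in the series. Counts without these arrays are given where they moved by over 1.5 times, together with some others.

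Between 24 and 72 h of 10 mM APAP, many genes changed by small amounts in both directions. At 72 h, 1139 genes were higher (6.02% of all genes) and 982 were lower (5.19%) than at 24 h, each group being 3 arrays (limma, with the Benjamini-Hochberg adjusted p below 0.05). Together these were 2121 genes, or 11.2%. The median change was 0.58 among the higher genes and -0.52 among the lower ones, and 90.0% of the called genes changed less than 2-fold. Large rises outnumbered large falls: 159 rises and 53 falls were 2-fold or more, and 15 rises and 4 falls were 4-fold or more. The 3 arrays at 72 h lay entirely above the 3 at 24 h for 2689 genes (14.2%) and entirely below them for 2528 (13.4%). Without the weak spike-in arrays the total fell to 1100 called genes, of which 60.3% were higher. The split of the calls depended on scaling. Median centring of the arrays called 2212 genes with 46.3% higher, against 53.7% of the 2121.

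The largest rise among genes with a level of at least 6 and no overlap of arrays was that of ENSG00000236613. Its log2 levels at 10 mM were 8.05, 9.15 and 8.31 at 72 h, against 4.78, 5.59 and 3.89 at 24 h. At 48 h they were 7.58, 8.19 and 7.44. The 24 h arrays lay far below all later ones, and the change of 3.75 ± 0.31 (SE) was a 13.4-fold rise (limma adjusted p = 9.8e-10). In DMSO the same gene stood at 7.58, 8.30 and 8.57 at 72 h and 8.08, 8.37 and 8.11 at 24 h, ranges that overlap. At 12 h it was already low at 10 mM, with levels of 5.80, 5.45 and 5.95, against 8.08, 8.55 and 7.75 in DMSO. The rise at 10 mM thus ended at levels that overlap those of the solvent cultures at 72 h.

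The next largest rise, that of ENSG00000162078, had another course. Its levels at 10 mM were 9.03, 9.16 and 8.81 at 72 h, against 5.98, 6.00 and 5.53 at 24 h. The 48 h arrays gave 8.67, 9.19 and 8.35. The 48 h and 72 h ranges overlap, and both lie above every 24 h array. The change was 3.16 ± 0.18 (SE), an 8.96-fold rise (adjusted p = 1.9e-13). This gene also rose with time in DMSO, from a lower level and by less: 5.16 to 5.67 at 72 h, against 3.60 to 4.03 at 24 h. The rise at 10 mM exceeded that in DMSO by 1.55 ± 0.25 on the log2 scale (SE, limma adjusted p = 3.7e-05).

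Among the falls, ENSG00000158104 dropped furthest and did so in both steps. Its levels at 10 mM were 6.87, 6.50 and 6.53 at 72 h, against 9.42, 9.48 and 9.09 at 24 h. The 48 h arrays gave 8.42, 8.31 and 8.18. The 3 times do not overlap, and the step from 48 to 72 h (-1.67, adjusted p = 2.7e-07) and that from 24 to 48 h (-1.03, adjusted p = 7e-05) both passed the test. In all it fell by 2.70 ± 0.16 (SE), which is 6.48-fold lower (adjusted p = 3.1e-13). In DMSO it fell by 0.79, with 8.94, 8.71 and 9.42 at 72 h against 9.84, 9.75 and 9.86 at 24 h. The change at 10 mM minus that in DMSO was -1.90 ± 0.22 (SE, adjusted p = 1.9e-07).

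ENSG00000125144, next among the falls by the same conditions of level and overlap, fell in every treatment. Its levels at 10 mM were 7.68, 7.44 and 7.72 at 72 h, against 9.83, 10.34 and 9.44 at 24 h, a 4.77-fold lower level with no overlap (-2.25 ± 0.40, SE, adjusted p = 2.4e-04). In DMSO its levels were 8.57, 7.82 and 8.22 at 72 h, against 11.14, 11.52 and 11.44 at 24 h, a change of -3.16. The difference between these changes, 0.91 ± 0.57 (SE), did not pass the test (adjusted p = 0.36), although it reached 1.23 with an adjusted p of 0.021 without the weak spike-in arrays. At 0.5 mM the change was -2.63.

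**Figure D1:**
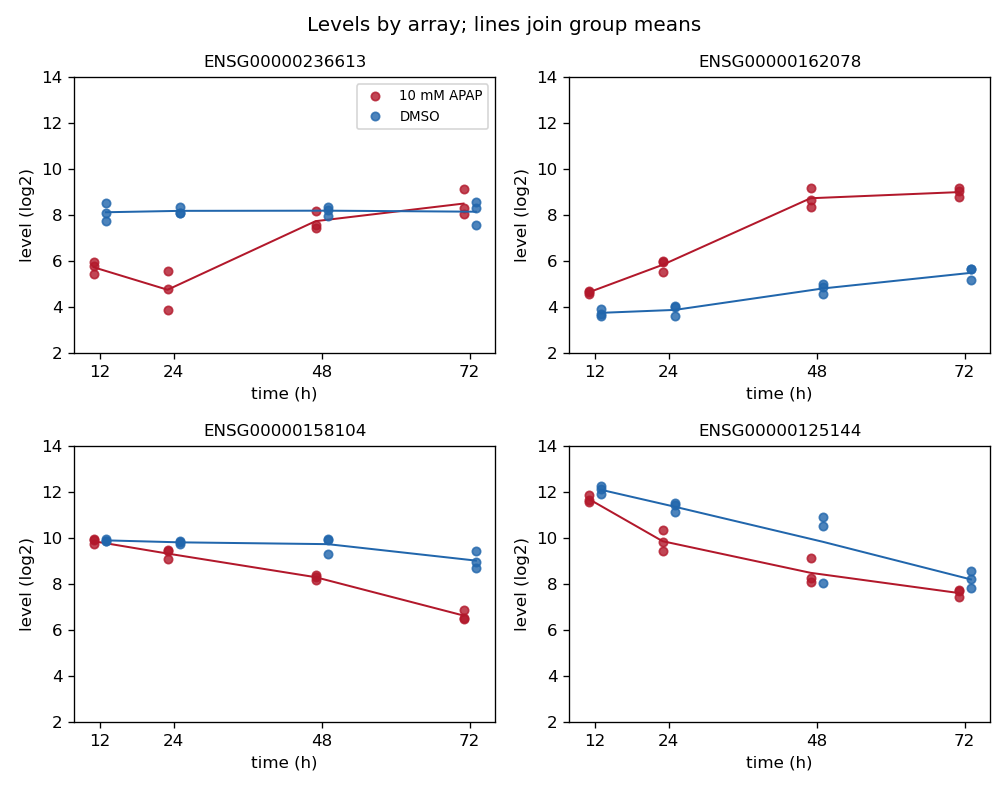
Log2 level of the 4 genes on every 10 mM APAP and DMSO array (points) and the group means (lines), with hours of exposure on the horizontal axis. ENSG00000236613 starts low at 10 mM and ends at 8.05 to 9.15 at 72 h, overlapping the DMSO values of 7.58 to 8.57 at that time, while ENSG00000158104 ends at 6.50 to 6.87, below all DMSO arrays.

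The calls covered genes at every level but were scarce among dim ones. Of the 10727 genes whose mean level over the 9 arrays was under 4, 3.25% were called. The share was 18.7% of 2974 genes at levels of 4 to 6, 22.3% of 2271 at 6 to 8, 23.9% of 1832 at 8 to 10 and 24.6% of 1115 above 10. Rises were the more frequent calls at low levels, with 225 rises and 124 falls under level 4 and 321 and 234 at 4 to 6. Among genes at levels of 8 to 10 the order turned, with 195 rises and 242 falls. Above 10 there were 132 rises and 142 falls. These splits were not recomputed under other scalings.

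Most of the change lay in the first part of the interval. From 24 to 48 h, 627 genes rose (3.31%) and 539 fell (2.85%), which made 1166 genes or 6.16% of all. From 48 to 72 h, 48 rose (0.254%) and 36 fell (0.19%), or 84 genes and 0.444%. At least 2-fold rises numbered 79 and falls 41 in the earlier step, against 9 and 3 in the later one. At an unadjusted p under 0.05 the earlier step held 3384 genes and the later one 1552, so the gap between the steps was narrower without the adjustment. The 48 h arrays lay entirely apart from the 24 h arrays for 20.4% of the genes, and the 72 h arrays entirely apart from the 48 h arrays for 11.9%. The count for the earlier step was 710 without replicate 1 of the 24 h group and 829 without the weak spike-in arrays, and the count for the later step was between 28 and 106 as single arrays were left out and 32 without the weak ones.

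**Figure D2:**
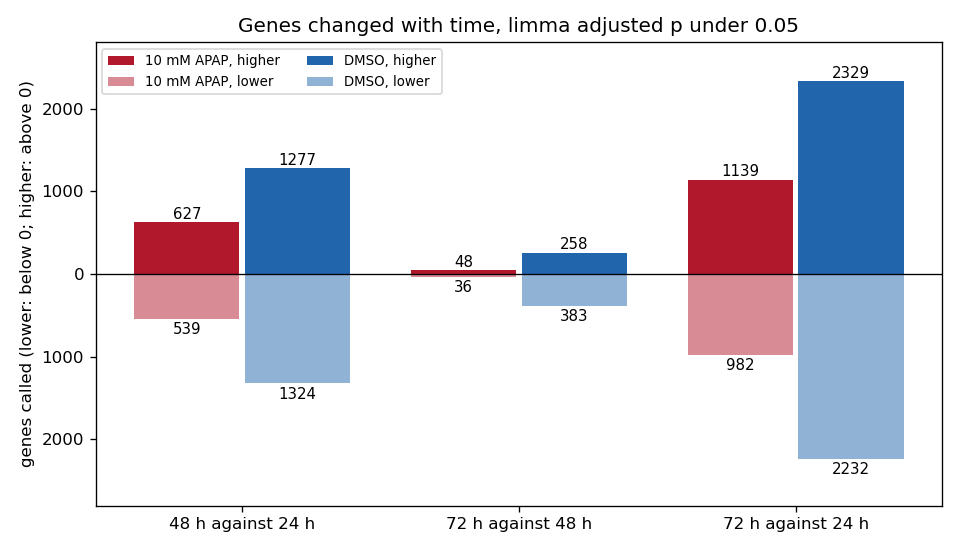
Number of genes called higher (upward bars) and lower (downward bars) in each step at 10 mM APAP and in DMSO. At 10 mM the step from 24 to 48 h holds 1166 genes and that from 48 to 72 h holds 84; in DMSO the same steps hold 2601 and 641, but 1283 and 1625 without the weak spike-in arrays.

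The 48 h arrays place each gene along its course. Their means do not enter the change from 24 to 72 h, but its test uses a shared spread estimated over all 36 arrays. Of the 2121 genes called between 24 and 72 h, 1632 (76.9%) had a 48 h mean nearer to the 72 h mean than to the 24 h mean. This share was 57.7% over all genes. The median called gene had made 70.5% of its change by 48 h, 69.0% for risers and 72.9% for fallers. Over all genes this median was 65.7%, and an even pace would give 50%. For 278 of the 2121 genes the 48 h mean lay past the 72 h mean, and for 27 it lay on the far side of the 24 h mean. Among the 212 called genes with at least a 2-fold change, 80.2% lay nearer to 72 h. The share stayed between 71.1% and 79.4% as single arrays were left out in turn. Few single genes could be called as bent: the 48 h level differed from the midpoint of the other times in 74 genes (0.391%), 39 above (0.206%) and 35 below (0.185%). In 28 of the 39 the 48 h mean was the highest of the 3, and in all 35 it was the lowest. The count of 74 was between 34 and 114 as single arrays were left out, 46 without the weak spike-in arrays, 9 with only the arrays compared and 226 with array weights. A moderated F test for any difference among the 3 times called 1955 genes (10.3%), or 1079 without the weak spike-in arrays.

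The question of how much of this is the passage of time in culture is addressed by the solvent arrays. In DMSO, 2329 genes rose (12.3%) and 2232 fell (11.8%) between 24 and 72 h, 24.1% of all genes, against 11.2% at 10 mM. The changes were also larger: 390 rises and 624 falls were 2-fold or more, and 56 and 217 were 4-fold or more. By step, 2601 genes (13.7%) changed from 24 to 48 h in DMSO and 641 (3.39%) from 48 to 72 h. The order of these steps turned without the weak spike-in arrays, to 1283 and 1625 genes. Leaving out replicate 1 of DMSO at 48 h alone gave 1616 for the later step, and leaving out replicate 2 or 3 of that group gave 262 or 233. At 0.5 mM the total was 4593 genes (24.3%). The 10 mM and DMSO changes share no arrays, though their tests use the same shared spread. Deviations of same-numbered arrays of these treatments also correlated, at 0.12 to 0.35 at 24 h and 0.20 to 0.27 at 72 h. The 2 changes are therefore not fully independent. Genes called in the same direction in both numbered 767 (430 higher and 337 lower), which is 36.2% of the 10 mM calls and 16.8% of the DMSO calls. A further 260 genes were called in opposite directions, 25.3% of the 1027 called in both. Without the weak spike-in arrays these counts were 405 and 114, and the opposite calls numbered 160 without replicate 2 at 24 h of 10 mM and 162 without replicate 1 at 72 h. Across the 18919 genes, which are not independent of each other, the changes at 10 mM and in DMSO correlated with r = 0.21. The 0.5 mM and DMSO changes, which share no arrays either, correlated with r = 0.93, with 3473 genes called in the same direction and 1 in the opposite one.

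**Figure D3:**
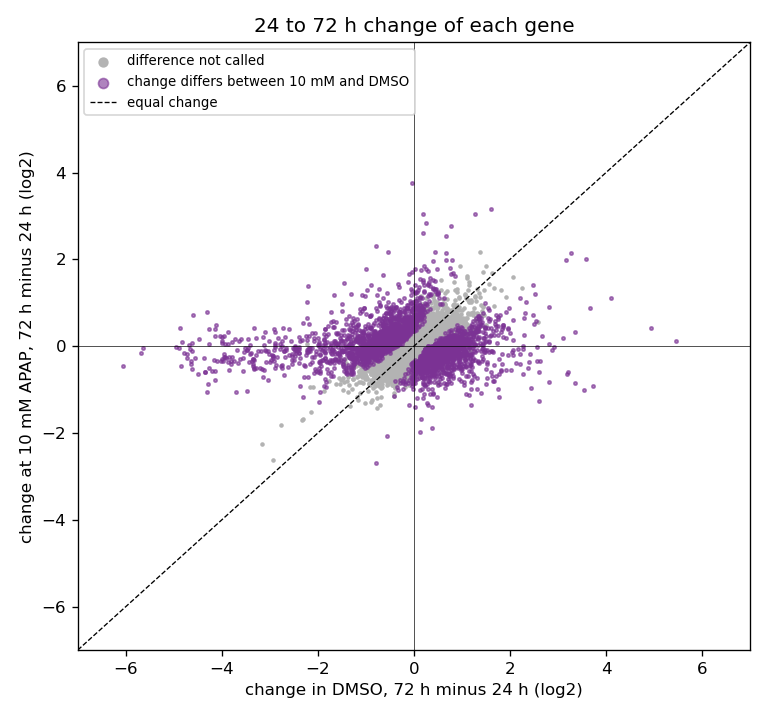
Log2 change from 24 to 72 h at 10 mM APAP (vertical axis) against that in DMSO (horizontal axis), 1 point per gene, purple where the changes differed between treatments. The points spread along the horizontal axis, to 5.45 and -6.05 in DMSO, more than along the vertical one, where they reach 3.75 and -2.70.

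The difference between the treatments was tested directly as the change at 10 mM minus the change in DMSO. It passed the threshold in 2975 genes (15.7%), 1557 above 0 (8.23%) and 1418 below it (7.5%), and 230 and 66 of these differed by at least 4-fold. Most were genes that moved in the solvent and were not called at 10 mM: 1885 of the 2975 (63.4%) were called in DMSO alone, of which 988 fell and 897 rose there. Another 484 (16.3%) were called at 10 mM alone, 282 of them higher and 202 lower at 72 h. A further 260 were called in opposite directions, 134 in the same direction and 212 in neither. These classes rest on the same arrays as the test and only describe its calls. In the group above 0 the median change was 0.16 at 10 mM and -0.70 in DMSO, and in the group below 0 it was -0.18 and 0.60. Of the 2121 genes called at 10 mM, 878 (41.4%) also differed from the change in DMSO. For the other 1243 no difference from the solvent course was detected, which does not show that the courses were alike. Against the change at 0.5 mM, 3238 genes differed (17.1%). By step, 1385 genes differed from DMSO in the earlier step (7.32%) and 132 in the later one (0.698%), or 612 and 570 without the weak spike-in arrays. The replicate numbers paired the 10 mM and DMSO arrays at each time, which the counts above do not use. With the replicate number as a block within each time, 3580 genes differed between 24 and 72 h. The earlier step then held 1928 genes and the later step 322. In the fit without the block, replicate 1 of DMSO at 48 h decided the later count of 132. That count was 777 with this array left out, and leaving out replicate 2 or 3 of its group gave 33.

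The genes that fell most clearly in the solvent changed little in level at the high dose, while many of its clearest risers were called there with smaller changes. The 100 genes with the clearest falls in DMSO had a median level of 8.74 at 24 h in both treatments. In the 10 mM arrays, which entered their choice only through the shared spread, the median level was 8.59 at 48 h and 8.51 at 72 h. In DMSO it was 6.48 at 48 h and 4.89 at 72 h. The median change of these genes was -0.17 at 10 mM, against -3.52 in DMSO, where it chose them. At 10 mM, 7 of the 100 were called lower and 1 higher, where 5.19% and 6.02% of all genes were. Of genes with a mean level of 8 to 10, where their median lay, 13.2% were called lower and 10.6% higher. The share called was thus below that of genes at such levels. The 100 clearest risers in DMSO had median levels of 6.24, 6.31 and 6.34 at 10 mM, in order of time, and of 5.48, 7.16 and 7.93 in DMSO. For these risers the median change was 0.31 at 10 mM, against 1.79 in DMSO. Of them, 36 were called higher and 9 lower at 10 mM, against 6.02% and 5.19% of all genes. At levels of 6 to 8, where the median of these risers lay, 11.7% of genes were called higher and 10.6% lower. Calls higher were thus more frequent than among such genes, and calls lower were not.

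As a mean shift toward the 72 h state over these 200 genes, on the log2 scale and relative to each treatment's own 24 h mean, the arrays of 72 h at 10 mM reached 0.19, 0.26 and 0.24, against 2.75, 2.70 and 2.75 for DMSO. The 0.5 mM arrays averaged 2.46 ± 0.04 (SD, n = 3). The 10 mM arrays at 48 h stood at 0.10, 0.19 and 0.13, against -0.03, 0.13 and -0.10 at 24 h, so these ranges overlap. The DMSO arrays at 48 h were uneven, at 2.27, 1.53 and 1.28, with replicate 1, whose spike-ins were weak, furthest along.

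The reverse set, the 100 clearest risers and 100 clearest fallers at 10 mM, moved in the same direction in DMSO by a smaller amount. At 10 mM its shift was 0.78, 0.80 and 0.83 at 48 h and 1.18 ± 0.02 (SD, n = 3) at 72 h, where the set was chosen. The 48 h arrays entered the choice only through the shared spread, but the 24 h mean they were set against helped make it. In DMSO the shift was 0.23 ± 0.03 at 48 h and 0.42, 0.35 and 0.34 at 72 h. Of the set's risers, 80 of 100 had a positive change in DMSO, and the median change was 1.29 at 10 mM, where it chose them, against 0.36 in DMSO. Of its fallers, 61 of 100 had a negative one, and the median was -0.78 at 10 mM, against -0.18 in DMSO. The 2 sets of 200 had 6 risers and 2 fallers in common.

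**Figure D4:**
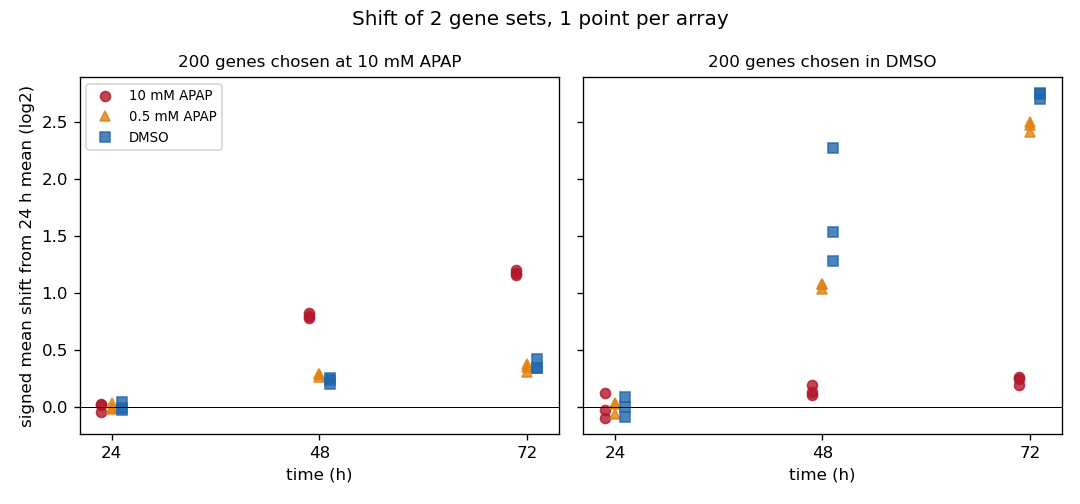
Mean log2 shift from the treatment's own 24 h mean, per array, of the 200 genes that changed most clearly at 10 mM APAP (first panel) and in DMSO (second panel), against hours of exposure. In the second panel the 10 mM arrays stay between 0.19 and 0.26 at 72 h, while the DMSO arrays lie between 2.70 and 2.75.

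The difference between 10 mM and DMSO at 12 h was set beside the later course. The 12 h arrays enter the late comparisons only through the shared spread. At 12 h, 2690 genes were higher (14.2%) and 2338 lower (12.4%) at 10 mM than in DMSO. Of the 2690 raised genes, 242 rose and 321 (11.9%) fell between 24 and 72 h at 10 mM. Of those lowered at 12 h, 363 (15.5%) rose and 193 (8.26%) fell. Among the 13891 genes with no call at 12 h there were 534 rises (3.84%) and 468 falls (3.37%). These classes were not matched for level, and calls were scarce among dim genes. Of the 1119 genes called both at 12 h and later, 684 (61.1%) moved against their 12 h difference. The share was between 59.7% and 63.3% as single arrays were left out. It was 63.7% without the weak spike-in arrays, which include replicate 1 of 10 mM at 12 h. In DMSO the leaning was the other way. Of the genes higher at 10 mM at 12 h, 711 rose with time in the solvent (26.4%) and 337 fell (12.5%). Of those lower at 10 mM, 720 fell (30.8%) and 338 rose (14.5%). There 675 of 2106 genes (32.1%) moved against the 12 h difference. Over all genes the correlation with the 12 h difference was -0.13 at 10 mM and 0.17 in DMSO, weak in both. The medians of the late change were also small, -0.05 for genes raised and 0.05 for genes lowered at 12 h. ENSG00000236613, low at 12 h and risen by 72 h, is an example of the turn. ENSG00000162078, higher by 0.89 than DMSO at 12 h, rose further.

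**Figure D5:**
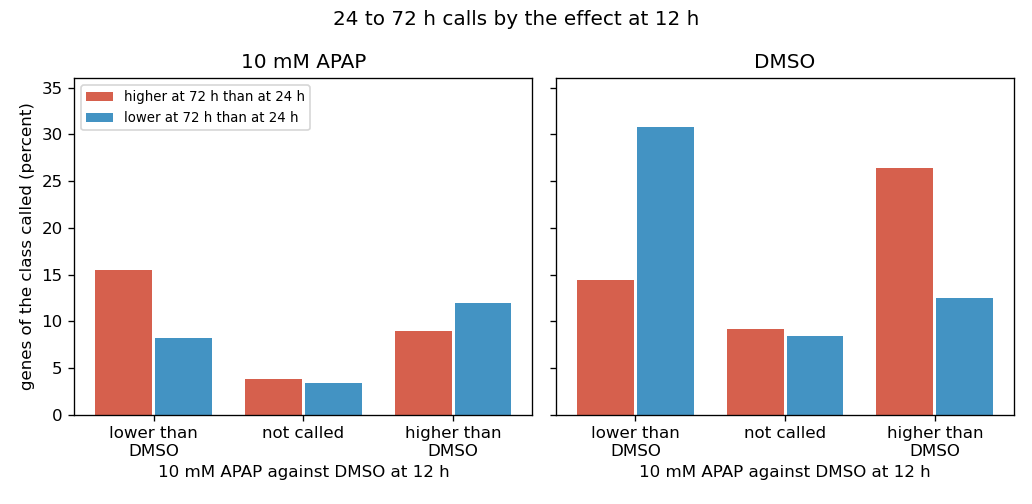
Share of genes, in percent, that rose or fell between 24 and 72 h at 10 mM APAP and in DMSO. Genes are grouped by their 12 h difference, as higher or lower at 10 mM APAP than in DMSO, or not called. At 10 mM the genes lowered at 12 h rose more often (15.5%) than they fell (8.26%), and in DMSO they fell more often (30.8%) than they rose (14.5%).

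The control rows named in the table concern GAPDH, a glycolytic enzyme, and beta-actin, a cytoskeletal protein, both probed at 3 places along the transcript. The middle GAPDH row at 10 mM gave 13.49 ± 0.16 in the 72 h arrays and 13.69 ± 0.13 in the 24 h arrays (SD, n = 3), and in DMSO 13.61 ± 0.08 and 13.94 ± 0.05. The middle actin row at 10 mM was 12.93 ± 0.13 at 72 h and 13.10 ± 0.22 at 24 h, and in DMSO 12.55 ± 0.15 and 13.21 ± 0.04. Both means were lower at 72 h in each treatment, for actin by less at 10 mM than in DMSO, a difference that was not tested. The excess of the 3' over the 5' GAPDH row, which grows as RNA is degraded or copied less fully, was 0.41, 0.24 and 0.20 at 72 h and 0.06, 0.26 and 0.04 at 24 h at 10 mM, so that 1 of the 24 h arrays overlaps the later ones. In DMSO it was 0.19 ± 0.03 at 72 h and -0.01 ± 0.11 at 24 h. With 3 arrays against 3 an exact permutation test cannot give a p below 0.10. The actin excess at 10 mM averaged 2.20 at 72 h and 2.04 at 24 h. It stood apart on replicate 3 of 0.5 mM at 72 h, at 3.97 against 2.39 and 2.15 on the other replicates. Replicate 2 of 0.5 mM at 48 h, which is part of the fitted model, was also high, at 3.63 against 2.25 and 2.02. Without replicate 3 of 0.5 mM at 72 h, 4083 genes changed at 0.5 mM and 3102 changed differently at 10 mM than at 0.5 mM. With the GAPDH excess as a covariate, 1880 genes were called between 24 and 72 h at 10 mM.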

How the data were processed

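The deposited values are log2 expression levels made by the authors with RMA, per the submitters' processing notes. RMA's version and settings, the probe sets and the annotation were not given in the sources used. Per the labels' protocols, RNA of high integrity was amplified and biotin-labelled with a 3' IVT kit. The table had 18981 rows, 62 of them control rows. RMA gives all arrays nearly the same distribution and so hides a common shift of most genes. No further normalization or filter was applied.

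Groups came from titles and time labels. One limma model (version 3.58.1, under R 4.3.3; lmFit and eBayes, 24 residual degrees of freedom) held 12 group means over the 36 arrays, and p-values were Benjamini-Hochberg adjusted over 18919 genes, with a threshold of 0.05. P-values measure the spread between these arrays. The unit of comparison, members, lists and tests were chosen with earlier results of these data known. Both the test of 72 against 24 h and the test of the difference from DMSO were tested on simulated data with known changes. Only 200 of the 18919 genes were changed, with independent noise. Many more genes were called in the real data, so the recovery there can differ. The former recovered 68% of log2 changes of 0.5 and 97% of changes of 1, with 13 false calls among 194. The latter recovered 30% and 86%, with 7 false calls among 158, so in the simulation it missed most differences of 0.5. Figures were drawn with matplotlib 3.10.9.

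None of the identifiers (0 of 18919) matched the reference table, assembly GRCh38.p14, of 59792 rows, so the cell type markers, the 38 gene lists and the part of the naming rule that asks for a symbol were not run. The naming rule took the largest log2 changes between 72 and 24 h among called genes with no overlap of arrays and a level of at least 6 in the higher group; 636 risers and 651 fallers met it, and the first 2 each way are given.

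Replicate numbers come from the titles. Deviations from the group means correlated over 0.1 in all 3 same-numbered pairs between 48 and 24 h at 10 mM (0.12 to 0.45) and between 10 mM and DMSO at 24, 48 and 72 h (0.12 to 0.35), so there the numbers pair the arrays. Between 72 and 24 h at 10 mM they ranged from -0.14 to 0.11, which does not pair them.

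The alternatives were the arrays compared alone, the replicate number as a block, a mean level of at least 5, a second quantile normalization, median centring, a trended robust variance prior, array weights, a minimum of 1.5-fold change, leaving out weak spike-in arrays (mean of dap rows under log2 7), the GAPDH 3' to 5' difference as a covariate, and each array left out in turn. The blocks within single times, the arrays left out beyond 10 mM and the differences by step were added after seeing the data. For 1 human control transcript no result is reported.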

Additional observations from a re-analysis of the deposited data

Results flagged for a closer look

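The course from 24 to 72 h differed between treatments in a direct test of the difference (limma, adjusted p under 0.05). The change at 10 mM differed from that in DMSO in 2975 genes between 24 and 72 h, in 1385 genes between 24 and 48 h and in 132 genes between 48 and 72 h, and it differed from the change at 0.5 mM in 3238 genes between 24 and 72 h. Of the genes given by identifier, the change at 10 mM minus the change in DMSO was 3.79 for ENSG00000236613, 1.55 for ENSG00000162078 and -1.90 for ENSG00000158104. The counts by step are not firm. That from 24 to 48 h was 612 without the weak spike-in arrays, and that from 48 to 72 h was 33 to 777 as single arrays were left out, 7 with only the arrays compared and 322 with the replicate number as a block within each time.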

How the results depend on the processing

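Calls are given as numbers of genes, with the reported value in parentheses, and the causes of the shifts were not tested unless the alternative's construction gives them. Requiring a 1.5-fold change, which removes small changes by construction, left 917 (2121) genes for 72 against 24 h, 514 (1166) for 48 against 24 h, 50 (84) for 72 against 48 h and 35 (74) for 48 h against the midpoint at 10 mM, 2457, 1322 and 414 for the same 3 steps in DMSO, 2469 at 0.5 mM and 2687 for the 12 h difference. Without the weak spike-in arrays, and so with fewer samples, the 10 mM counts were 1100 for 72 against 24 h, 32 for 72 against 48 h, 46 for the midpoint and 1079 for the F test, those in DMSO 1283 from 24 to 48 h and 1625 from 48 to 72 h, and the differences from DMSO numbered 612 from 24 to 48 h and 570 from 48 to 72 h. Fitting only the arrays compared gave 714 for 48 against 24 h, 15 for 72 against 48 h, 9 for the midpoint and 1222 for the F test at 10 mM, 334 for 72 against 48 h in DMSO and 7 for the difference from 48 to 72 h. Array weights gave 1898 for 48 against 24 h, 226 for the midpoint and 3057 for the F test at 10 mM, 1175 for 72 against 48 h in DMSO and 556 for the difference from 48 to 72 h. The GAPDH covariate gave 71 for that difference. With the replicate number as a block over all arrays, 2360 genes were called for 72 against 24 h, where the numbers do not pair the arrays, and 116 for the midpoint. Blocking the 24 and 48 h arrays at 10 mM, which the numbers pair, gave 1262. Apart from the 322 genes of the later step, the pairing block moved no count of differences from DMSO by over 1.5 times. Leaving out single arrays gave 1437 to 2285 genes for 72 against 24 h, 710 to 1326 for 48 against 24 h, 28 to 106 for 72 against 48 h and 34 to 114 for the midpoint at 10 mM, 33 to 777 for the difference from DMSO from 48 to 72 h, and 233 to 1616 for 72 against 48 h in DMSO, where replicate 1 at 48 h gave the highest value and replicates 2 and 3 gave 262 and 233. Each single 10 mM array at 48 or 72 h but replicate 3 at 48 h took the 72 against 48 h count below 52 when left out. The midpoint count was 43 without replicate 1 at 24 h, 39 and 34 without replicates 1 and 2 at 48 h, 47 without replicate 3 at 72 h and 114 without replicate 1 of DMSO at 48 h. The small change of ENSG00000236613 in DMSO (-0.04) was -0.25 without replicate 3 and 0.25 without replicate 1 at 72 h, 0.06 without replicate 2 at 24 h, 0.08 with array weights and 0.05 after a second quantile normalization.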
